A study of Mus musculus with 11 samples.

Results

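The genes of the proteasome were described in 11 libraries of mouse limb muscle stem cells. They were chosen by symbol, as every gene named Psm followed by a letter from a to g and a number, and not by their values. This rule took 47 of the 20640 genes in the table. They fell into 7 alpha subunits of the 20S core, 4 structural beta subunits, 3 constitutive catalytic beta subunits (Psmb5, Psmb6, Psmb7) and 3 immunoproteasome subunits (Psmb8, Psmb9, Psmb10). The 19S regulatory particle gave 5 ATPase and 11 non-ATPase subunits. The others were 3 assembly chaperones of the 19S particle, 4 assembly chaperones of the 20S core, 5 activators or inhibitors, and 2 tissue-restricted core subunits. The ATPase gene Psmc1 was not analysed here.

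The proteasome degrades proteins tagged with ubiquitin. Its 20S core is a barrel of alpha and beta rings, in which Psmb5 (the chymotrypsin-like site), Psmb6 (the caspase-like site) and Psmb7 (the trypsin-like site) cut the substrate. The 19S particle caps the barrel, recognises ubiquitin, and unfolds the substrate with its ATPase ring. Interferons induce Psmb8, Psmb9 and Psmb10, which take the places of Psmb5, Psmb6 and Psmb7 in newly built cores and favour peptides for MHC class I. They also induce Psme1 and Psme2, the subunits of the PA28 activator, an alternative cap. Muscle stem cells depend on proteasome activity for their maintenance.

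All mice carried Pax7-CreERT2;Rosa-YFP, in which a tamoxifen-inducible Cre driven from Pax7, the transcription factor that marks muscle stem cells, switches on YFP. All received tamoxifen by mouth (240 mg/kg) on 5 days at 12 to 14 weeks of age. Cells without lineage markers and with YFP were sorted from digested limb muscle, with antibodies to Sca-1, CD31, CD45 and VCAM1, a surface protein used to isolate muscle stem cells. The middle-aged group (3 libraries) held YFP+ cells with no VCAM1 gate named, from mice of 10 to 14 months in the sample labels and of 12 to 14 months in the protocol. Mice over 28 months old gave the geriatric VCAM1-high (3 libraries), VCAM1-low (2 libraries) and VCAM1-negative (3 libraries) cells, named here after the sample titles. Age, gate and time since labelling differ together between the middle-aged and the geriatric groups and cannot be told apart. The labels do not say whether libraries of a group came from separate mice or pools, so p-values measure the spread between these libraries, which may be technical.

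Values are RPKM as deposited (reads scaled by gene length and library depth), so levels can be compared between genes. Estimated depth ran from 19.9 M to 29.9 M reads. The summed level of 10 muscle stem cell markers was 3050 to 3970 RPKM in the middle-aged, 1990 to 3870 in the VCAM1-high, 1960 to 2400 in the VCAM1-low and 1460 to 2200 in the VCAM1-negative libraries. Vcam1, whose protein set the geriatric gates, is among these 10. It was at 48.6 to 122 RPKM in the VCAM1-negative, 188 to 418 in the VCAM1-high and 230.1 to 344 in the middle-aged libraries. Some libraries stood apart. Myofibre transcripts (11 of 12 listed genes measured) summed to 699, 7240 and 5640 RPKM in VCAM1-negative replicates 1 to 3 and to at most 336 elsewhere. Macrophage markers (12 genes) summed to 990 RPKM in VCAM1-high replicate 3 and to between 23.7 and 250 in the others. The 3 measured erythroid markers summed to 5.77 to 165 RPKM in the middle-aged, 14.0 to 488 in the VCAM1-high and 194 to 650 in the other geriatric libraries. Endothelial markers were highest in middle-aged replicate 3 (226 RPKM, against 15.5 to 104 elsewhere). Middle-aged replicate 1 gave the highest of the 11 values for 31 of 45 proteasome genes.

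Promoter stretches of some of the genes on which the results turn are shown first, because elements of the interferon and stress responses can be looked for in them. Each stretch shown holds a motif match. They are from RefSeq on GRCm38.p6, whereas the expression table was built on GRCm39, and each is given 5′ to 3′ on the strand of its gene. A window of 250 bases before and 50 after the start was held for 39 of the 47 genes. Capitals mark a motif match on either strand. Psmb8 (chr17:34198088-34198116, plus strand) holds the gamma-activated site TTCNNNGAA from position -97. Psmg1 (chr16:95990961-95991210, minus strand) holds it from -243. Psme1 (chr14:55578493-55578522, plus strand) holds the core of the interferon-stimulated response element, GAAA, any 2 bases and GAAA, on the opposite strand, from position 10 after the start. Psmb5 (chr14:54618023-54618245, minus strand) holds the antioxidant response element core TGACNNNGC, bound by Nfe2l1 and Nfe2l2, from -47. Psme2 (chr14:55591114-55591351, minus strand) and Psmg4 (chr13:34162714-34162963, plus strand) hold the GC box GGGCGG in the stretches shown.
Psmb8: tcctccgctgTTCCCAGAAgatgcccccc
Psme1: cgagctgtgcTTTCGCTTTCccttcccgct
Psme2: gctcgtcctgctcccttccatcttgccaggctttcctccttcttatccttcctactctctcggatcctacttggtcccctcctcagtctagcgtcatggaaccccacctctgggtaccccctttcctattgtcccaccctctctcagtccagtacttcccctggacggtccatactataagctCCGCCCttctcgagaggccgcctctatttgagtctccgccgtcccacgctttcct
Psmb5: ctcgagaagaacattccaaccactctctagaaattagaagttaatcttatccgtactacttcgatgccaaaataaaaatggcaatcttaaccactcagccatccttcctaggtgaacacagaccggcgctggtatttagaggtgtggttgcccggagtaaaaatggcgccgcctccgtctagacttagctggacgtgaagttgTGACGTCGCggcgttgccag
Psmg1: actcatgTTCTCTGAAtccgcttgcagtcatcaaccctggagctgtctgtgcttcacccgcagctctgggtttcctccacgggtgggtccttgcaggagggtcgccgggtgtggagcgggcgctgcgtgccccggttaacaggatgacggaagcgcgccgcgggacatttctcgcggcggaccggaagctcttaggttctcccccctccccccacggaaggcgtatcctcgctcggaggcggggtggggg
Psmg4: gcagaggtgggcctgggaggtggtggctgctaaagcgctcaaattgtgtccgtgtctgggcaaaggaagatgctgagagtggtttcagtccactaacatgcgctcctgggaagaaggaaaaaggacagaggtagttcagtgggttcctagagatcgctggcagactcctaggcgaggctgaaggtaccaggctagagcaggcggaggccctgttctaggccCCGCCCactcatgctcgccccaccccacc

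Over the 39 genes, the gamma-activated site was found in 3 (Psmb8, Psmg1 and Psmd2), or 7.69%, against 8.3% of all 32851 windows. The interferon-stimulated core was found in 5 (Psme1, Psmg4, Psmb3, Psmd4 and Psmd9), or 12.8%, against 3.44% of windows. The antioxidant core was found in 6 (15.4%, against 12.4%) and the GC box in 23 (59%, against 35.7%). In Psmd9 the antioxidant core and a GC box shared bases. None of these motifs was found in the window of Psmb10, whose stretch is not shown. The window of Psmb9 held the GC box alone. A match describes letters in a window and shows no binding.

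Transcripts of the core and the cap were abundant. The mean level over the 11 libraries ran from 54.5 RPKM (Psma5) to 125.4 (Psma2) among the alpha subunits, which form the outer rings and the gate. It ran from 97.7 (Psmb1) to 148 (Psmb2) among the structural beta subunits and from 55.0 (Psmd1) to 133 (Psmd4, the ubiquitin receptor also called Rpn10) among the non-ATPase subunits of the 19S particle. The ATPase subunits lay between 62.6 (Psmc2) and 135 (Psmc3). Assembly chaperones were lower, from 5.67 (Psmg3) to 18.7 (Psmg2) for the core and from 6.15 (Psmd10) to 26.0 (Psmd5) for the cap. The immune catalytic subunits were also below their constitutive counterparts in mean level, from 9.63 for Psmb9 to 41.0 for Psmb8, against 60.3 for Psmb5 and 181 for Psmb6. The testis-restricted Psma8 and the thymus-restricted Psmb11 did not exceed 0.103 and 0.0467 RPKM in any library. They were left out by the filter for the tests (at least 1 RPKM in at least 2 libraries), and the other 45 genes passed it.

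Among the immune subunits, Psmb8 was higher in each of the 8 geriatric libraries than in each middle-aged library, while Psmb9 and Psmb10 were not. Psmb8 measured 26.4, 23.1 and 34.2 RPKM in the middle-aged libraries, 52.1, 56.0 and 36.7 in the VCAM1-high, 43.1 and 50.6 in the VCAM1-low, and 38.7, 55.0 and 35.6 in the VCAM1-negative libraries. The lowest geriatric value, 35.6, stood just above the highest middle-aged one. On the log2(RPKM + 1) scale the difference was 0.77 ± 0.23 (SE) for VCAM1-high against middle-aged and 0.60 ± 0.23 for VCAM1-negative against middle-aged. Neither passed the limma test after Benjamini-Hochberg adjustment over 11568 genes (adjusted p = 0.156 and 0.0964). VCAM1-negative and VCAM1-high overlapped, with a difference of -0.16 ± 0.23 (adjusted p = 0.914). Libraries that did not overlap, with VCAM1-high above middle-aged, were common: 13.8% of all genes tested, but 1 of the 45 proteasome genes, Psmb8. In the lower direction it was 6.36% of all genes and again 1 proteasome gene, Psmg1.

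Psmb9 measured 8.48, 8.12 and 13.5 RPKM in the middle-aged libraries, 14.4, 12.5 and 9.32 in the VCAM1-high, 11.04 and 6.998 in the VCAM1-low, and 8.27, 8.19 and 5.23 in the VCAM1-negative libraries. Each VCAM1-negative library lay below each VCAM1-high library, and both groups overlapped with the middle-aged one. Psmb10 measured 20.5, 15.2 and 21.9 RPKM in the middle-aged libraries, 21.4, 12.0 and 16.9 in the VCAM1-high, 17.8 and 7.90 in the VCAM1-low, and 13.2, 6.504 and 12.3 in the VCAM1-negative libraries. All 3 VCAM1-negative values were below the lowest middle-aged one, and replicate 2 was the lowest of each group. In VCAM1-negative against VCAM1-high, Psmb9 differed by -0.67 ± 0.26 and Psmb10 by -0.62 ± 0.33 (adjusted p = 0.646 and 0.824). Same-numbered geriatric libraries deviate together, and a limma fit of these 8 that took out the replicate number called both genes: Psmb9 with an SE of 0.14 and adjusted p = 0.0442, and Psmb10 with an SE of 0.12 and adjusted p = 0.0380. In that fit 2 of 45 proteasome genes were called lower, or 4.44%, beside 3.26% of all genes. The Psmb9 call was lost without any one of the 8 libraries (adjusted p from 0.0783 to 0.166). The Psmb10 call was kept without VCAM1-high replicate 3 or VCAM1-negative replicate 3 (0.0461 and 0.0449) and lost without any other (0.0904 to 0.163). In a blocked fit over all 11 libraries neither passed, nor did any other proteasome gene (0.562% of all genes did).

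**Figure D1:**
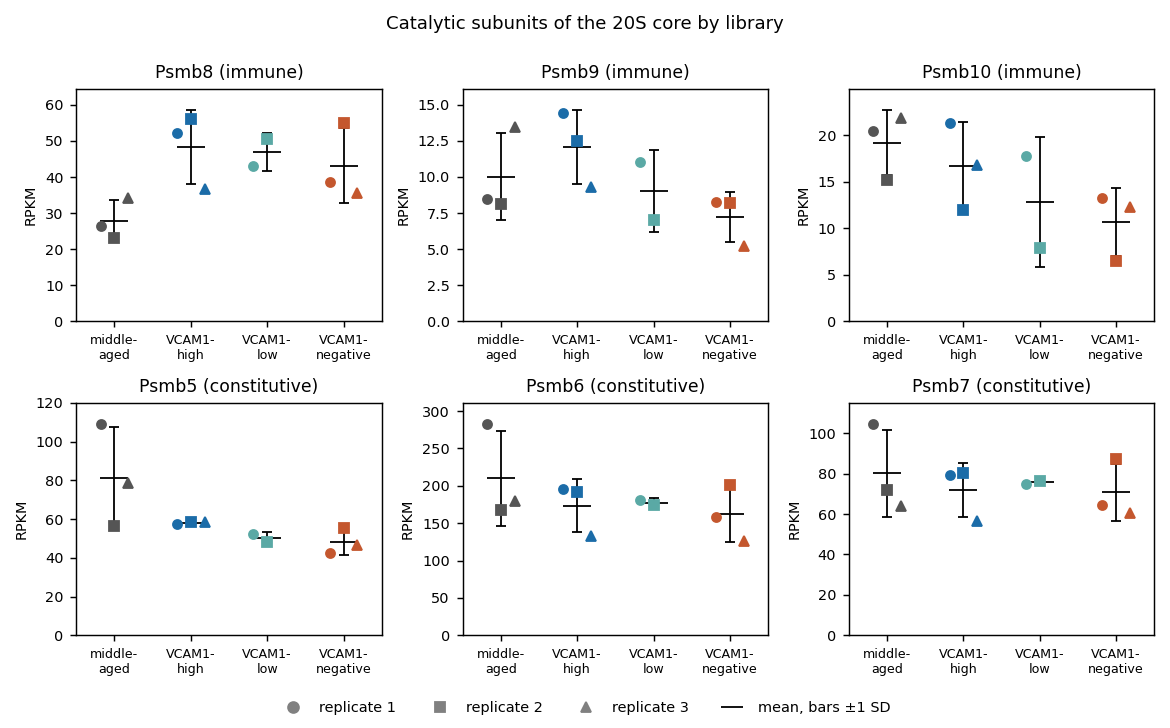
RPKM of the 3 immune catalytic subunits (top) and their constitutive counterparts (bottom) by group; points are libraries, shaped by replicate number, and bars show the mean ± 1 SD. Psmb8 lies at 23.1 to 34.2 in the middle-aged and at 35.6 to 56.0 in the geriatric libraries, while Psmb9 and Psmb10 overlap between age groups.

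Transcripts of other cells were set beside these values, since immune cells carry immunoproteasomes. Of 12 lymphocyte markers, 1 (Cd79a) averaged at least 1 RPKM, at 1.12 to 3.09 in the middle-aged and 4.50 to 8.07 in geriatric libraries. Cd79a was the 1 marker tested. It was called higher than in middle-aged cells (limma, adjusted p under 0.05) in VCAM1-high (log2 difference 1.41), VCAM1-low (1.41) and VCAM1-negative cells (1.53). The 12 markers summed to 1.18 to 4.61 RPKM in the middle-aged and 6.35 to 9.43 in the geriatric libraries. Among them, the T cell markers Cd3e, Cd3d and Cd8a were at or below 0.19 RPKM in all 11 libraries. The macrophage sum was highest in VCAM1-high replicate 3 (990 RPKM), which had the lowest Psmb8 and Psmb9 of its group. Replicates 1 and 2 of that group (33.1 and 37.6 RPKM) lay within the middle-aged range. Against middle-aged cells, all 9 tested macrophage markers were above 0 in VCAM1-high (median log2 difference 0.72) and in VCAM1-negative cells (1.1). In VCAM1-low cells 8 were above 0 and 1 below (median 0.53). None of the 9 was called in these comparisons. Within the middle-aged group, replicate 3 had the highest macrophage sum (166 RPKM against 39.7 and 23.7) and the highest Psmb8, Psmb9 and Psmb10. The part of these transcripts in the middle-aged spread, or in the differences between groups, was not tested. In bulk RNA, more cells of a type and more RNA per cell cannot be told apart.

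Each immune subunit was then set against the constitutive subunit whose place it takes, as a ratio within a library. The plain ratio does not depend on scaling. The log2 ratio used for the tests is not fully free of it, because 1 RPKM was added to each gene. Psmb8 over Psmb5 was 0.242, 0.41 and 0.435 in the middle-aged libraries, 0.904, 0.96 and 0.629 in the VCAM1-high, 0.824 and 1.05 in the VCAM1-low, and 0.909, 0.997 and 0.768 in the VCAM1-negative libraries. The geriatric ratios were all above the middle-aged ones. The log2 ratio, with 1 RPKM added to each gene, was higher by 1.19 in VCAM1-high cells and by 1.31 in VCAM1-negative cells than in middle-aged ones. A two-sided exact permutation test gave p = 0.1 for each, the smallest p that 3 against 3 libraries allow (adjusted p = 0.3 over 9 ratio tests). Psmb9 over Psmb6 was 0.03, 0.0485 and 0.0752 in the middle-aged, 0.0733, 0.065 and 0.0703 in the VCAM1-high, and 0.0521, 0.0407 and 0.0415 in the VCAM1-negative libraries. It was lower by 0.57 (log2) in VCAM1-negative than in VCAM1-high without overlap (exact permutation p = 0.1, adjusted p = 0.3), and overlapped in the other comparisons. Psmb10 over Psmb7 overlapped in all 3 comparisons, but was lower in VCAM1-negative than in VCAM1-high cells in 3 of 3 same-numbered pairs, with group means of 0.25 ± 0.080 in the middle-aged, 0.239 ± 0.078 in the VCAM1-high and 0.161 ± 0.075 in the VCAM1-negative libraries (SD, n = 3 each).

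**Figure D2:**
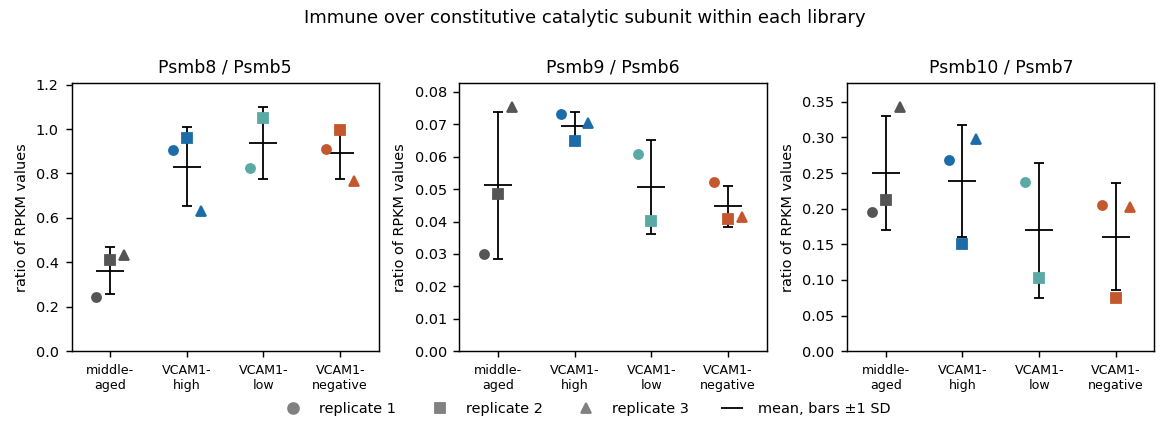
Ratio of RPKM values of each immune catalytic subunit to its constitutive counterpart within each library; points are libraries, shaped by replicate number, and bars show the mean ± 1 SD. Psmb8 over Psmb5 lies at 0.242 to 0.435 in the middle-aged and 0.629 to 1.05 in geriatric libraries, and the other ratios overlap between age groups.

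The immune subunits were also set against each other. Psmb8 over Psmb9 was 3.11, 2.85 and 2.54 in the middle-aged libraries, 3.62, 4.5 and 3.94 in the VCAM1-high, 3.91 and 7.23 in the VCAM1-low, and 4.68, 6.72 and 6.81 in the VCAM1-negative libraries. These ranges did not overlap between middle-aged, VCAM1-high and VCAM1-negative (exact permutation p = 0.1 for each pair, adjusted p = 0.12 over 6 tests, a ratio chosen after seeing the data). Psmb8 over Psmb10, the other ratio of these 6 tests, was likewise higher without overlap in VCAM1-high and VCAM1-negative than in middle-aged cells (exact permutation p = 0.1, adjusted p = 0.12), and overlapped between VCAM1-negative and VCAM1-high (p = 0.5, adjusted p = 0.5). The 3 immune subunits made up 10.0%, 13.6% and 17.8% of the summed RPKM of the 6 catalytic genes in the middle-aged libraries, 20.9%, 19.6% and 20.3% in the VCAM1-high, and 18.5%, 16.9% and 18.6% in the VCAM1-negative libraries. The VCAM1-high shares stood above all middle-aged ones, and those of VCAM1-negative overlapped with middle-aged replicate 3. The middle-aged share was lowest in replicate 1, where the constitutive subunits were highest.

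Psmb6 was the highest of the constitutive catalytic subunits in all 11 libraries. Psmb5 measured 109, 56.4 and 78.6 RPKM in the middle-aged, 57.6, 58.4 and 58.4 in the VCAM1-high, 52.4 and 48.2 in the VCAM1-low, and 42.6, 55.2 and 46.4 in the VCAM1-negative libraries. VCAM1-negative lay below middle-aged and VCAM1-high, by a narrow margin at middle-aged replicate 2, and overlapped with VCAM1-low. Psmb5 differed by -0.71 ± 0.22 in VCAM1-negative against middle-aged cells (limma, adjusted p = 0.0542), just short of the threshold of 0.05. It passed with libraries rescaled by their median ratio (adjusted p = 0.0438) or with genes of at least 5 RPKM in the mean (0.0470). With 1 library left out, the difference ran from -0.94 to -0.47 and the adjusted p from 0.0275 to 0.159. Psmb6 differed by -0.36 ± 0.25 and Psmb7 by -0.16 ± 0.23 in the same comparison (adjusted p = 0.338 and 0.647), with overlapping libraries.

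In VCAM1-negative against middle-aged cells, 5 of 45 proteasome genes fell and none rose (limma, adjusted p under 0.05): Psmg1 and Psmg4, chaperones of core assembly, Psme1 and Psme2, the PA28 activator, and the alpha subunit Psma4. That is 11.1% lower, beside 7.38% of all genes tested, and 0 higher, beside 7.06%. In either direction the share was 11.1%, beside 14.4% of all genes, so proteasome genes were not called more often than others. Psmg1, which with Psmg2 starts the alpha ring, measured 29.7, 17.2 and 16.7 RPKM in the middle-aged, 14.8, 11.5 and 12.9 in the VCAM1-high, 12.7 and 6.43 in the VCAM1-low, and 12.1, 6.59 and 7.96 in the VCAM1-negative libraries. Every geriatric value was below every middle-aged one. It fell by 1.16 ± 0.30 in VCAM1-negative cells (adjusted p = 0.0307). In VCAM1-high against middle-aged cells Psmg1 differed by -0.62 ± 0.30 (adjusted p = 0.363). With the replicate number as a block in all 11 libraries, it passed (SE 0.15, adjusted p = 0.0467). It was 1 of 45 proteasome genes called lower, or 2.22%, beside 2.81% of all genes. Same-numbered libraries of these groups also deviate together. The block, though, set the same replicate effect for all 4 groups. VCAM1-negative and VCAM1-low libraries were not found to pair with middle-aged ones, so the smaller SE rests on a pairing that did not hold throughout. Psmg4, which with Psmg3 escorts the alpha ring, measured 18.6, 12.6 and 11.7 RPKM in the middle-aged, 13.4, 9.66 and 6.45 in the VCAM1-high, 9.29 and 7.94 in the VCAM1-low, and 7.95, 7.08 and 5.96 in the VCAM1-negative libraries. It fell by 0.92 ± 0.25 in VCAM1-negative against middle-aged cells (adjusted p = 0.0372).

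Psme1 measured 112, 77.1 and 91.6 RPKM in the middle-aged, 91.6, 65.5 and 66.6 in the VCAM1-high, 65.7 and 52.4 in the VCAM1-low, and 58.0, 41.9 and 56.8 in the VCAM1-negative libraries. Its partner Psme2 measured 129, 79.9 and 87.4 in the middle-aged, 90.4, 66.5 and 55.3 in the VCAM1-high, 71.8 and 50.7 in the VCAM1-low, and 54.5, 46.9 and 48.7 in the VCAM1-negative libraries. For both genes the VCAM1-negative libraries lay below all VCAM1-high and all middle-aged libraries. Psme1 fell by 0.83 ± 0.21 and Psme2 by 0.94 ± 0.24 against middle-aged cells (adjusted p = 0.0312 and 0.0297). In the same comparison Psmb8, likewise inducible by interferon, lay above the middle-aged libraries without passing the test. Psme3, which forms the nuclear activator PA28-gamma and is not interferon-induced, measured 64.4, 54.1 and 46.2 RPKM in the middle-aged, 58.4, 74.3 and 62.7 in the VCAM1-high, and 52.9, 80.9 and 85.7 in the VCAM1-negative libraries, which overlapped. It differed by 0.39 ± 0.25 in VCAM1-negative against middle-aged cells (adjusted p = 0.288). The activator Psme4 (PA200) stayed between 4.77 and 10.2 RPKM and the inhibitor Psmf1 (PI31) between 5.44 and 8.39.

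Psma4 measured 174, 100.9 and 115 RPKM in the middle-aged, 109, 89.0 and 88.9 in the VCAM1-high, 79.1 and 68.5 in the VCAM1-low, and 70.0, 72.9 and 63.2 in the VCAM1-negative libraries. It fell by 0.87 ± 0.21 in VCAM1-negative against middle-aged cells (adjusted p = 0.0236), the smallest adjusted p of the 45 genes in that comparison. Psma5 and Psma7 were also lower without overlap and missed the threshold (-0.76 ± 0.27 and -0.62 ± 0.24, adjusted p = 0.0772 and 0.104). The other 4 alpha subunits did not pass either. Psma3 was the alpha subunit above 0, at 80.3 to 125 RPKM in the middle-aged and 82.0 to 130 in the VCAM1-negative libraries.

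These 5 calls rested on few libraries. Left without middle-aged replicate 1, VCAM1-negative replicate 2 or VCAM1-negative replicate 3, none of the 5 passed. Without middle-aged replicate 3, Psma4 and Psmg1 passed. Psmg4 was also lost without VCAM1-negative replicate 1 (adjusted p = 0.0536) or middle-aged replicate 2 (0.0617). None passed without the number-3 libraries, and with no filter on low values Psma4 alone did (0.052 to 0.071 for the other 4). Directions held: with any one of the 11 libraries left out, the difference ran from -1.38 to -0.90 for Psmg1, -1.04 to -0.72 for Psmg4, -0.96 to -0.68 for Psme1, -1.07 to -0.73 for Psme2, and -1.03 to -0.65 for Psma4. Myofibre transcripts were high in VCAM1-negative replicates 2 and 3 (7240 and 5640 RPKM). Replicate 1, at 699, was also above all libraries of the other groups (at most 336). The 5 genes lay at 12.1, 7.95, 58.0, 54.5 and 70.0 RPKM (Psmg1, Psmg4, Psme1, Psme2 and Psma4) in replicate 1, each below all middle-aged libraries. All but Psma4 were higher in replicate 1 than in replicates 2 and 3. Muscle stem cell markers moved with these genes: 4 of 10 fell in the same comparison (beside 7.38% of all genes). Of the 10, 9 were below 0, with a median of -1.07, and the summed levels of the groups did not overlap. These 10 include Vcam1, whose protein set the VCAM1-negative gate, so Vcam1 is not independent of the sorting. Of the 11 measured myofibre markers, 10 rose in this comparison (beside 7.06% of all genes), with a median of 3.43. The 3 erythroid markers were all above 0 (median 3.28), and none of them was called. The part of myofibre, stem cell or erythroid transcripts in the 5 calls was not tested.

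**Figure D3:**
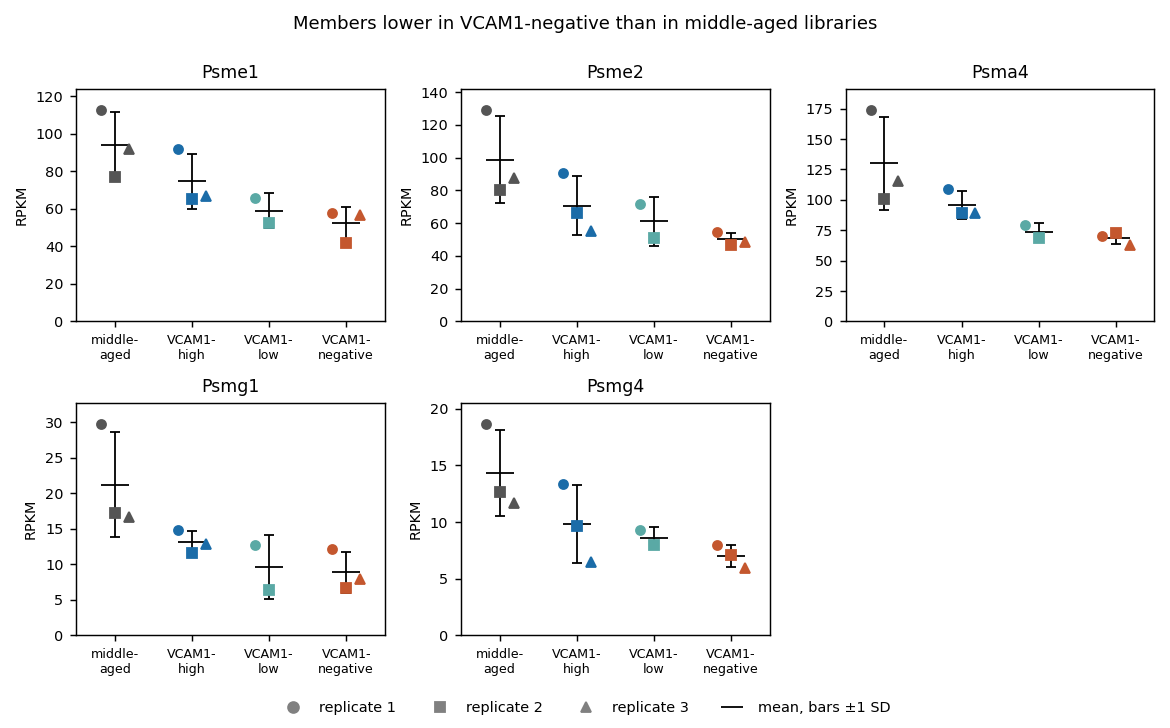
RPKM by group of the 5 proteasome genes lower in VCAM1-negative than in middle-aged cells; points are libraries, shaped by replicate number, and bars show the mean ± 1 SD. All VCAM1-negative libraries lie below all middle-aged ones, and middle-aged replicate 1 is the highest of the 11 for each gene.

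None of the 16 subunits of the regulatory particle passed the test in VCAM1-negative against middle-aged cells. The median difference was -0.03 for the 5 ATPase subunits and -0.15 for the 11 non-ATPase subunits. It was -0.44 for the alpha subunits, -0.52 for the structural beta subunits, -0.36 for the constitutive catalytic subunits, and -0.74 for the core chaperones, beside -0.02 for all 11568 genes; these medians are a description, and their difference was not tested. Within the cap, the deubiquitinase Psmd14 (Rpn11) ran at 100.4, 60.4 and 52.3 RPKM in the middle-aged and 46.2, 51.4 and 42.6 in the VCAM1-negative libraries, which did not overlap. Psmd12, a lid subunit, ran at 107, 89.6 and 85.0 against 95.9, 147 and 102, and Psmd8 at 128, 108 and 122 against 103, 164 and 111, which overlapped. Among the cap's chaperones, Psmd10 (gankyrin) was at 5.17 to 13.2 RPKM in the middle-aged and 4.09 to 4.33 in the VCAM1-negative libraries, without overlap. Psmd5 and Psmd9 overlapped between these groups.

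The summed RPKM of the 14 constitutive core genes was 2297, 1458 and 1517 in the middle-aged, 1674, 1662 and 1159 in the VCAM1-high, 1387 and 1438 in the VCAM1-low, and 1190, 1583 and 1011 in the VCAM1-negative libraries. The sum of the 16 cap genes was 1964, 1351 and 1533 in the middle-aged, 1418, 1642 and 1534 in the VCAM1-high, 1284 and 1585 in the VCAM1-low, and 1192, 1791 and 1460 in the VCAM1-negative libraries. The core sum of both VCAM1-low libraries was below all middle-aged ones, and the groups overlapped otherwise. The core sum over the cap sum was 1.17, 1.08 and 0.99 in the middle-aged, 1.18, 1.01 and 0.755 in the VCAM1-high, 1.08 and 0.907 in the VCAM1-low, and 0.998, 0.884 and 0.693 in the VCAM1-negative libraries. The groups overlapped here as well, while within each pair of same-numbered libraries the ratio was lower in VCAM1-negative (3 of 3 pairs) and VCAM1-low (2 of 2) than in VCAM1-high cells, which was not tested. In each group the ratio was highest in replicate 1, and replicate 3 was the lowest in the groups that have one.

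**Figure D4:**
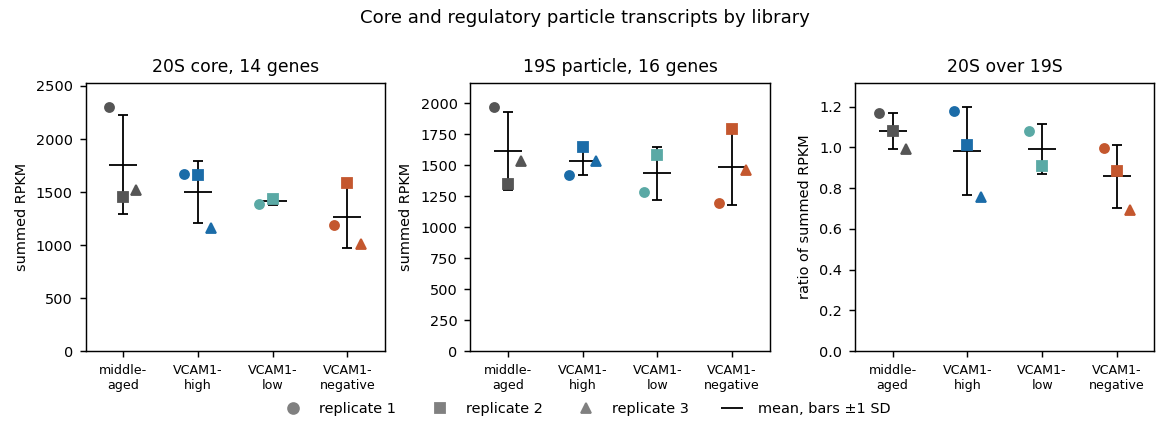
Summed RPKM of the 14 constitutive 20S core genes, of the 16 genes of the 19S particle, and the ratio of these sums in each library; points are libraries, shaped by replicate number, and bars show the mean ± 1 SD. The ratio overlaps between groups and runs from 1.18 in VCAM1-high replicate 1 to 0.693 in VCAM1-negative replicate 3.

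In VCAM1-high against middle-aged cells, none of the 45 genes passed the limma test (0.605% of all genes tested did). At an unadjusted p under 0.05, Psmb8 was the 1 gene (14.9% of all genes). The median difference over the 45 genes was -0.12, beside 0.04 for all genes, and 33 were below 0 (73.3%, beside 45.6%). In VCAM1-negative against VCAM1-high cells, none passed, as for all genes (0%), and 3 genes were under an unadjusted p of 0.05 (Psmb9, Psme1 and Psma4, beside 6.53% of all genes). The median was -0.20, beside -0.07, and 39 were below 0 (86.7%, beside 60.8%). Libraries did not overlap for 10 genes lower in VCAM1-negative cells (22.2%, beside 8.08% of all genes) and for 0 higher (3.28%). These 10 were Psma4, Psmb5, Psmb9, Psmc3, Psmd5, Psmd10, Psmd14, Psme1, Psme2 and Psmg2. In VCAM1-negative against middle-aged cells, the median was -0.31, beside -0.02, and 37 were below 0 (82.2%, beside 51.6%). Libraries did not overlap for 13 genes lower (28.9%, beside 20.3%) and for 1 higher, Psmb8 (2.22%, beside 18.7%). These comparisons share libraries and are not independent of each other.

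**Figure D5:**
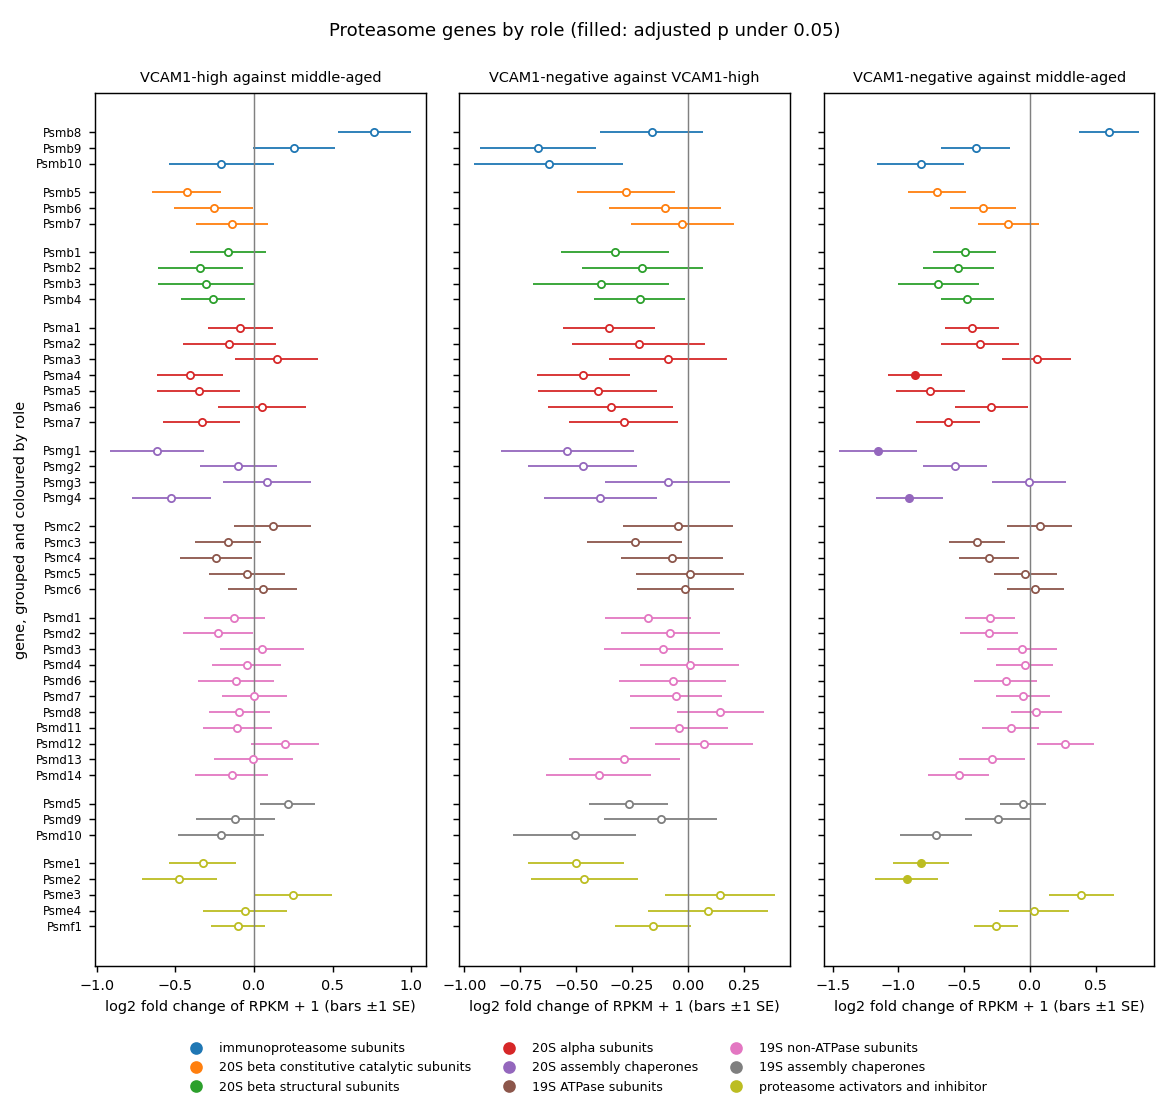
Log2 fold change of RPKM + 1 (± 1 SE, limma) of the 45 tested proteasome genes, grouped and coloured by role, in 3 comparisons with separate horizontal scales; filled points have an adjusted p under 0.05. The 5 filled points are Psma4, Psmg1, Psmg4, Psme1 and Psme2 in VCAM1-negative against middle-aged, and Psmb8 is the farthest to the right in both panels against middle-aged, at 0.77 and 0.60.

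The 2 VCAM1-low libraries gave no call among the 45 genes, against middle-aged (4.11% of all genes were called), VCAM1-high (0%) or VCAM1-negative cells (0%). The F test among the 4 groups called none either (3.32% of all genes). At an unadjusted p under 0.05 there were 9 genes against middle-aged (20%, beside 26.42% of all genes) and 0 against VCAM1-high and VCAM1-negative (beside 2.91% and 1.88%). Against the middle-aged libraries, 12 genes were lower without overlap (26.7%, beside 24.9%) and 1, Psmb8, was higher (2.22%, beside 19.9%).

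The genes around the proteasome were followed from fixed lists in VCAM1-negative against middle-aged cells, where 7.06% of all genes rose and 7.38% fell. Of 10 measured partners of the proteasome outside the symbol rule, 1 fell and none rose, a share near that of all genes. This was Pomp, the maturation factor that completes the core with the Psmg chaperones. It measured 120, 72.9 and 67.8 RPKM in the middle-aged, 65.7, 52.0 and 49.9 in the VCAM1-high, 52.5 and 38.1 in the VCAM1-low, and 43.4, 46.8 and 29.7 in the VCAM1-negative libraries. Every geriatric value was below every middle-aged one, and Pomp fell by 1.08 ± 0.26 (adjusted p = 0.0242). Of 6 regulators of proteasome genes, 1 rose and none fell: Ddi2, the protease that activates Nfe2l1 when proteasome capacity is short. Ddi2 measured 6.07, 5.54 and 7.36 RPKM in the middle-aged, 10.2, 13.2 and 11.8 in the VCAM1-high, and 15.3, 21.5 and 14.9 in the VCAM1-negative libraries, without overlap between any pair of these groups. It rose by 1.31 ± 0.20 (adjusted p = 0.00604). Nfe2l1 itself lay at 21.7 to 28.7 RPKM in the middle-aged and 25.8 to 32.5 in the VCAM1-negative libraries (0.20 ± 0.19, adjusted p = 0.481). Against middle-aged cells, 1 of the 6 regulators also rose in VCAM1-low cells (beside 2.22% of all genes).

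Of 14 regulators of the immunoproteasome in the interferon pathway, 4 rose (beside 7.06% of all genes) and none fell (7.38%). Nlrc5, the activator of MHC class I genes, measured 0.854, 1.52 and 1.12 RPKM in the middle-aged and 3.38, 6.20 and 4.85 in the VCAM1-negative libraries (1.41 ± 0.27, adjusted p = 0.0126). Stat2 (1.64 ± 0.36, adjusted p = 0.0193), Irf9 (0.97 ± 0.22, 0.0216) and Irf1 (0.64 ± 0.18, 0.0418) were the others. In VCAM1-high against middle-aged cells none of the 14 passed, and all 14 were above 0 with a median of 0.48. In VCAM1-low against middle-aged cells 1 of the 14 rose (beside 2.22% of all genes). There 13 of the 14 were above 0, with a median of 0.53. Of 10 genes of MHC class I peptide loading, 1 fell, a share near that of all genes, and none rose. This was Pdia3 (-0.71 ± 0.21, adjusted p = 0.0441). The peptide transporter Tap1 measured 37.3, 37.8 and 50.04 RPKM in the middle-aged and 45.4, 62.4 and 72.7 in the VCAM1-negative libraries, which overlapped (0.50 ± 0.21, adjusted p = 0.117).

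None of 14 genes of ubiquitin and its shuttles passed. Of 6 ubiquitin ligases known from muscle atrophy, 3 rose (beside 7.06% of all genes): Fbxo32 (atrogin-1), Trim63 (MuRF1) and Fbxo40. Trim63 measured 1.62, 88.3 and 10.1 RPKM and Fbxo40 measured 0.255, 2.46 and 1.80 in VCAM1-negative replicates 1 to 3, and both were highest in the replicates with the most myofibre transcripts. Fbxo32 measured 2.38, 1.20 and 1.51 in the middle-aged, 4.37, 6.57 and 3.26 in the VCAM1-high, and 9.25, 15.0 and 7.14 in the VCAM1-negative libraries, and rose by 2.05 ± 0.29 (adjusted p = 0.00393). Against middle-aged cells, 1 of the 6 ligases also rose in VCAM1-low cells (beside 2.22% of all genes). The part of myofibre RNA in these values was not tested.

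Outside the proteasome, the genes whose log2(RPKM + 1) followed the mean of Psmb8, Psmb9 and Psmb10 most closely over the 11 libraries were Rxylt1 (Pearson r = 0.914), 4932438H23Rik (0.869), Cdkl3 (0.853), Rras (0.852) and Pdgfb (0.838), then Pcdhb10, Gopc, Krba1, Cyba and Mtss1 (0.802 to 0.813). These are the top 10 of all tested genes over 11 libraries that share groups and replicate numbers, and are given as a description.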

How the data were processed

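Gene expression was measured by bulk RNA-seq in 11 libraries. Per the labels' protocols, RNA was extracted with TRI Reagent and amplified with the SMART-Seq kit for low input. The submitters' processing notes name cutadapt 3.1, STAR 2.7.5b, Bowtie2 2.1.0, SAMtools 0.1.19 and build GRCm39, without their roles. The authors deposited RPKM values for 20640 gene symbols. The counting tool, the annotation and the strand setting were not given in the sources used here. Since the SMART-Seq kit does not mark strand, reads of overlapping antisense genes cannot be told apart.

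Depth was estimated from low values of 3428 single-transcript genes, of which 63.3% to 71.9% lay within 0.1 of a whole read (20% by chance). At the lowest depth, the lowest tested proteasome level stood for about 79.9 reads per kilobase.

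Genes of at least 1 RPKM in at least 2 libraries (11568) were tested on log2(RPKM + 1), where fold changes of low genes are understated. limma 3.58.1 (R 4.3.3) was fitted with 4 group means over all 11 libraries and a variance trend, adjusted by Benjamini and Hochberg over all genes, threshold 0.05; the script was tested on simulated data. Ratios of 2 genes were tested by two-sided exact permutation over libraries.

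The labels do not say what a replicate number marks. Deviations from the group means of same-numbered libraries correlated at 0.414, 0.581 and 0.403 for VCAM1-high with VCAM1-negative and at 0.211, 0.332 and 0.554 for VCAM1-high with middle-aged. By a rule that every pair exceed 0.1, these numbers were taken to pair the libraries, from the data and not from the labels. For VCAM1-negative with middle-aged (-0.025, 0.033 and 0.081) they were not.

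Always named were the immune subunits, their counterparts, Psme1 and Psme2; at most 4 genes per role were given in full, by smallest F test p, and others by level. Of the other lists at most 4 were named by adjusted p, with Tap1, Irf1 and Nlrc5; 1 further gene is not reported here. Nfe2l1 and the single cap subunits were chosen after their values were seen. The members and lists were chosen with earlier results of these data known. Alternatives were another pseudocount (0.1), filter and scaling, a replicate block, the 2 groups alone, and leaving out each library.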

Additional observations from a re-analysis of the deposited data

How the results depend on the processing

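Counts of called proteasome genes were recomputed under each alternative. With the replicate block in 11 libraries, 1 gene (Psmg1) was lower in VCAM1-high against middle-aged, 13 in VCAM1-negative against middle-aged (28.9%, beside 17.3% of all genes), 6 passed the F test (13.3%, beside 17.5%) and 6 were lower in VCAM1-low against middle-aged (13.3%, beside 9.52%). With the replicate block in the 8 geriatric libraries, 2 genes (Psmb9 and Psmb10) were lower in VCAM1-negative against VCAM1-high. For VCAM1-negative and VCAM1-low against middle-aged, the numbers were not found to pair the libraries (r = 0.147 and 0.032 for VCAM1-low), and the block gain is given here alone. The 5 genes lower in VCAM1-negative against middle-aged became 1 with no filter on low values and 0 with no number-3 libraries (chosen after seeing the data), and ranged from 0 to 5 with 1 library left out (2 without middle-aged replicate 3). The cause was not tested. The other counts kept to within 1.5 times under the alternatives run. Of 812 alternative values of 42 fold changes (14 genes, 3 comparisons), 802 kept their direction. The exceptions were small. Psmb7 in VCAM1-negative against VCAM1-high (-0.02) was 0.055 with median ratio scaling and -0.19 to 0.077 with 1 library left out. Psmb6 in that comparison ranged from -0.28 to 0.065. Psmb7 ranged from -0.28 to 0.068 in the VCAM1-high and from -0.32 to 0.044 in VCAM1-negative against middle-aged. Psme3 in VCAM1-negative against VCAM1-high (0.14) was -0.0093 with no number-3 libraries. Ratios that changed sign with 1 library left out were Psmb8/Psmb5 (-0.069 to 0.229) and Psmb8/Psmb10 (-0.016 to 0.785) in VCAM1-negative against VCAM1-high, Psmb9/Psmb6 in VCAM1-negative against middle-aged (-0.383 to 0.249), and Psmb10/Psmb7 in the VCAM1-high against middle-aged (-0.255 to 0.223). Psmb8 stayed above middle-aged in VCAM1-high (0.64 to 0.95) and VCAM1-negative cells (0.42 to 0.75) with any 1 library left out, and passed in none of these fits.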
